A study of Homo sapiens with 18 samples.

Results

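The genes described here are 35 members of homologous recombination and the Fanconi anemia pathway, chosen by exact match of their gene symbol from a list of textbook pathway members, out of 20145 genes counted in LNCaP cells. The choice was made with earlier results of these data known, so shares of the members are those of a selected set. LNCaP is an established human prostate adenocarcinoma line that depends on the androgen receptor. All 35 had a row in the table and all 35 passed the filter on low counts, which left 15422 genes for testing. Libraries of polyadenylated RNA numbered 18, with 3 replicates per condition after 72 h of treatment: 1 µM of 2-77, ACBI (0.2 µM), BD98 (2 µM), P-16 and ENZA (10 µM each), or DMSO, the vehicle. The labels describe 1 growth medium, RPMI with fetal bovine serum, for all cells. ENZA is enzalutamide, an antagonist of the androgen receptor, and the series concerns inhibitors of the bromodomain of BRD7, a chromatin reader protein. What 2-77, BD98, ACBI and P-16 bind is not stated in the labels, and doses differed, so a contrast of compounds is also one of doses. Whether the 3 replicates were separate cultures is not stated, and p-values then measure only the spread between these libraries, which may be technical.

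Homologous recombination repairs a double-strand break by copying the sister chromatid, which is present only after DNA replication. The MRE11-RAD50-NBN complex and RBBP8 start to trim the broken end, EXO1 and BLM extend the trimming, and BRCA1 with BARD1, PALB2 and BRCA2 prepares the single strand for the search for its homologous partner. The Fanconi anemia pathway removes crosslinks between the DNA strands: a core complex and the enzyme UBE2T attach ubiquitin to FANCD2 and FANCI. Many genes of both pathways are transcribed mainly in S and G2 phase, so their RNA is usually more abundant in cycling than in resting cells. In prostate cancer, inherited or acquired defects of BRCA2, ATM and other members sensitise tumours to PARP inhibitors, and androgen receptor signalling has been reported to raise the expression of some recombination genes.

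Totals ran from 16835113 to 36975052 counts per library. Levels are counts scaled to library size with TMM factors (CPM), and a fold change is on the log2 scale with its standard error (SE), positive where the first-named condition was higher. A gene was called where the Benjamini-Hochberg adjusted p of edgeR's quasi-likelihood test was under 0.05. The 8 luminal prostate markers were present in every library and summed to 4850 to 4960 CPM with 2-77, 4220 to 4420 with ACBI, 6560 to 6810 with BD98, 6830 to 6860 with P-16, 5580 to 5700 with ENZA and 9330 to 9390 in DMSO. Of markers of other cell types, the basal keratin KRT14 reached at most 2.09 CPM in any library, while the basal TP63 and KRT5 had no row. The neuroendocrine CHGA reached at most 0.166 CPM and the leukocyte gene PTPRC 0.0542 CPM. SYP, also neuroendocrine, stood at 13.6 to 15 CPM with ACBI and 2.05 to 2.62 in DMSO. The macrophage-associated CD68, which other cells also express, stood at 4.12 to 7.13 CPM. The mesenchymal markers COL1A1, DCN and VIM summed to 44.9 to 47.9 CPM with 2-77 and 25.9 to 27.3 in DMSO. ACBI replicate 3 stood apart, with ribosomal RNA genes at 8.6% of its counts, against 0.639% to 2.09% in all other libraries.

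Promoter sequence was read from RefSeq (GRCh38.p14), in a window of 250 bases before and 50 after each start, for the 32 members with an entry. The stretches printed here were chosen after the values were seen, 4 from genes that fell with ACBI and that of BARD1, which did not pass the test there in the fit of all libraries. Capitals mark a CCAAT box on either strand, the element bound by NF-Y, or the letters TTCGCGC or TTGGCGC (either strand), a core of sites bound by E2F factors. The stretches are chr17:61863529-61863658 for BRIP1 (minus strand), chr14:103715452-103715671 for XRCC3 (minus), chr15:90717186-90717345 for BLM (plus), chr1:241848084-241848217 for EXO1 (plus) and chr2:214809684-214809813 for BARD1 (minus), each 5′ to 3′.
BRIP1: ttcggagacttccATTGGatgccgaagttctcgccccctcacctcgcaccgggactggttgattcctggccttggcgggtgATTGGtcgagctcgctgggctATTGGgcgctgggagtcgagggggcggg
XRCC3: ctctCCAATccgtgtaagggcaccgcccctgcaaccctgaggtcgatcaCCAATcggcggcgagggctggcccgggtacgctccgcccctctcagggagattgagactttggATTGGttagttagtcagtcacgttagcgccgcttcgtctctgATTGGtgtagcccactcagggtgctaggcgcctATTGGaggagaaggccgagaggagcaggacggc
BLM: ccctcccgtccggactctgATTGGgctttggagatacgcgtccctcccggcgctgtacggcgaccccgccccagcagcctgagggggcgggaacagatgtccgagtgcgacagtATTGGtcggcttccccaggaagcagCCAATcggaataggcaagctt
EXO1: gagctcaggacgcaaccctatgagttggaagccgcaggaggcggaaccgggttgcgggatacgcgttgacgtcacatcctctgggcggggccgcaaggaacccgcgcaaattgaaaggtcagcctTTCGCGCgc
BARD1: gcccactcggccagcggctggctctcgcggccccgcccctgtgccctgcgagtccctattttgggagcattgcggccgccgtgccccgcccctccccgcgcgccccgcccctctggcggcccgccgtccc
BRIP1 and BLM hold 3 CCAAT boxes each in the window and XRCC3 holds 5, while BARD1 holds no box. At least 1 CCAAT box stood in the window of 14 of 32 members (43.8%), against 34.6% of all 35116 promoters of the same length. Those promoters were taken whether or not their gene was tested here, while every member was tested, so the sets are not alike. At least 3 boxes stood in 4 members (12.5%), against 3.26% of all promoters. The E2F letters stood in 5 members (15.6%, namely EXO1, BLM, FANCA, FANCC and FANCF), against 5.06% of all promoters. The letters TTTGAA or TTTAAA (either strand), the cell cycle element CHR, stood in 7 members (21.9%), against 24% of all promoters. Letters and falls did not go together throughout. The windows of BRCA2 (-3.77 ± 0.12 with ACBI), FANCD2 (-3.04 ± 0.075) and XRCC2 (-2.80 ± 0.098) hold no CCAAT box and no E2F letters, and neither does that of BRCA1, whose RefSeq window lies outside the gene as counted. MRE11 (-0.42 ± 0.071) holds 2 boxes, and FANCF (-0.40 ± 0.065) holds 2 boxes and the E2F letters. The median fold change with ACBI was -1.59 for members with a CCAAT box and -1.19 for those without. For the E2F letters it was -2.71 for the 5 members with them and -1.33 for those without. For the CHR letters it was -1.33 with and -1.37 without. These counts describe letters in a window and were not tested.

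Summed over the 35 members, RNA came to 1114, 1085 and 1144 CPM with 2-77, 641, 668 and 707 with ACBI and 1191, 1204 and 1176 with BD98. The sum was 1158, 1135 and 1142 CPM with P-16, 1146, 1139 and 1155 with ENZA and 1234, 1261 and 1205 in DMSO. The libraries of 2-77, ACBI, P-16 and ENZA lay below those of DMSO, while the highest of BD98 (1204 CPM) and the lowest of DMSO (1205 CPM) were nearly equal. Abundant members weigh most in the sum, and the most abundant, BARD1, had a mean of 167.7 CPM in DMSO and 114.4 with BD98. The median fold change of the members with BD98 was 0.04. All 5 comparisons with DMSO share the same 3 DMSO libraries, and so are not independent of one another.

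With 2-77, most members that changed were lower, and the changes were small. Of 35 members, 20 fell and 1 rose, a share of 57.1% down, against 20.2% of all genes tested that fell, 20.5% that rose and 40.7% called in all. The median over the members was -0.24 (all genes 0.001), and the range was -0.65 to 0.21. The largest falls were RAD51AP1 (-0.65 ± 0.093, adjusted p = 1.64e-06), BRCA2 (-0.57 ± 0.085, adjusted p = 2.75e-06), XRCC3 (-0.53 ± 0.060, adjusted p = 2.42e-08) and BRCA1 (-0.51 ± 0.057, adjusted p = 1.88e-08). The 1 member that rose was BARD1, the obligate partner of BRCA1 (0.21 ± 0.052, adjusted p = 0.00209). The proliferation marker MKI67 had 151, 148 and 152 CPM with 2-77 and 224, 235 and 230.5 in DMSO (-0.61 ± 0.042), and the part of this in the members' fall was not tested. PCNA, the replication clamp, had 110.1, 114 and 116 CPM with 2-77 and 116, 109 and 113 in DMSO and did not pass the test (0.01 ± 0.047). In RNA from whole cultures, fewer cells in S and G2 phase and less RNA per cell cannot be told apart. The calls of BRIP1, RAD51C, RAD54L, EXO1, BLM, RAD51B, FANCE and RAD54B were each lost on leaving out at least 1 library, with every library of both groups among them (fold changes then -0.34 to -0.14, adjusted p = 0.0532 to 0.243). The number up was 2 without 2-77 replicate 2 or without DMSO replicate 2.

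With ACBI, the members fell much further. Of 35 members, 30 fell and 1 rose, and ATM, ATR, BARD1 and NBN did not pass the test. The share down was 85.7%, against 36.6% of all genes that fell and 35.4% that rose. The median was -1.33 (all genes -0.008) and the folds ran from -4.94 for EXO1 to 0.78 for FANCL. Outside the 35, the median was -0.76 over 29 further homologous recombination genes and -0.08 over 15 further Fanconi genes. RAD54L fell 21.6-fold, BRCA1 17.1-fold and BRCA2 13.7-fold, while MRE11 fell 1.34-fold and RAD51D 1.21-fold. MKI67 had 10.4, 9.18 and 9.32 CPM with ACBI and 224, 235 and 230.5 in DMSO, and the clamp gene PCNA had 39.2, 45.8 and 45.6 CPM with ACBI and 116, 109 and 113 in DMSO. The neuroendocrine markers CHGA, SYP and NCAM1 summed to 14.1 to 15.7 CPM with ACBI and 2.58 to 3.13 in DMSO, nearly all of it SYP, with CHGA near 0; the part of either in the members' fall was not tested. Without ACBI replicate 3, the library rich in ribosomal RNA, 32 members fell and 1 rose. The added falls were BARD1 (-0.16, adjusted p = 0.00283) and ATM (-0.15, adjusted p = 0.021), which were also called with library totals (-0.14, adjusted p = 0.0114, and -0.13, adjusted p = 0.0478). BARD1 was called too without DMSO replicate 3 (-0.13, adjusted p = 0.0431). The number up was 2 without ACBI replicate 1 or without DMSO replicate 2.

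With BD98, members were called in both directions, each way at a smaller share than all genes in the fit with TMM factors. Of 35 members, 7 rose and 5 fell, shares of 20% and 14.3%, against 24.5% up and 24.5% down among all genes, 49.0% together. With library totals in place of TMM factors, 11 rose and 2 fell (all genes 4641 up and 2867 down). FANCL (0.52 ± 0.13, adjusted p = 0.00111), FANCC (0.34 ± 0.068, adjusted p = 0.000123) and UBE2T (0.30 ± 0.057, adjusted p = 6.66e-05) rose most. BARD1 fell (-0.55 ± 0.054, adjusted p = 6.32e-09), which was the largest fall, followed by RAD50 (-0.30 ± 0.050, adjusted p = 9.51e-06). BRCA1 and BRCA2 did not pass the test (intervals of -0.12 to 0.11 and -0.34 to 0.00). PCNA rose (0.42 ± 0.046) and MKI67 did not pass (-0.04 ± 0.042). The calls of RBBP8, RAD54L, FANCI, POLQ and FANCE were lost on leaving out at least 1 library, with every library of both groups among them (fold changes then -0.21 to 0.21, adjusted p = 0.0525 to 0.245). Without DMSO replicate 3, 4 members rose.

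Most members called with P-16 were lower, and the changes were small. Of 35 members, 11 fell and 1 rose, so 31.4% were down, against 11.6% of all genes that fell and 12.4% that rose, 24.0% together. The median was -0.14 (all genes -0.003). BLM (-0.41 ± 0.12, adjusted p = 0.0139), BRCA2 (-0.35 ± 0.085, adjusted p = 0.00292) and BRCA1 (-0.32 ± 0.057, adjusted p = 8.73e-05) fell most, and BARD1 rose (0.21 ± 0.053, adjusted p = 0.00422). MKI67 was lower too (-0.34 ± 0.042), and PCNA did not pass (0.06 ± 0.047). The number down was 6 without DMSO replicate 2 and 7 without DMSO replicate 3. The calls of NBN, RAD51AP1, FANCD2, CHEK1, XRCC2 and BLM were each lost on leaving out at least 1 library (fold changes then -0.35 to -0.13, adjusted p = 0.0533 to 0.213). That of BLM was lost without DMSO replicate 3, that of XRCC2 without DMSO replicate 2, and the other 4 without P-16 replicate 3, DMSO replicate 2 or DMSO replicate 3, among others.

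ENZA, the antiandrogen, lowered most of the members it changed. Of 35 members, 19 fell and 4 rose, and 54.3% were down, against 18.1% of all genes that fell and 18.2% that rose. The median was -0.24 (all genes 0.001). RAD51AP1 (-0.57 ± 0.093, adjusted p = 1.16e-05), BLM (-0.55 ± 0.12, adjusted p = 0.000634) and BRIP1 (-0.52 ± 0.11, adjusted p = 0.00034) fell most. BARD1 rose (0.39 ± 0.052, adjusted p = 1.88e-06), and so did FANCL (0.34 ± 0.13), ATM (0.18 ± 0.061) and ATR (0.16 ± 0.060). MKI67 had 154, 149 and 154 CPM with ENZA and 224, 235 and 230.5 in DMSO, and the part of this in the members' fall was not tested. PCNA did not pass (0.00 ± 0.047). Of the rises, only that of BARD1 held in every leave-one-out fit: the calls of ATR, FANCL and ATM were lost, as were those of CHEK2, FANCE and RAD54B among the falls, and every library of both groups was among those whose removal lost one (fold changes then -0.35 to 0.36, adjusted p = 0.0508 to 0.201). The number up was 2 without ENZA replicate 1 and 1 without ENZA replicate 2 or 3 or DMSO replicate 1 or 3.

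**Figure D1:**
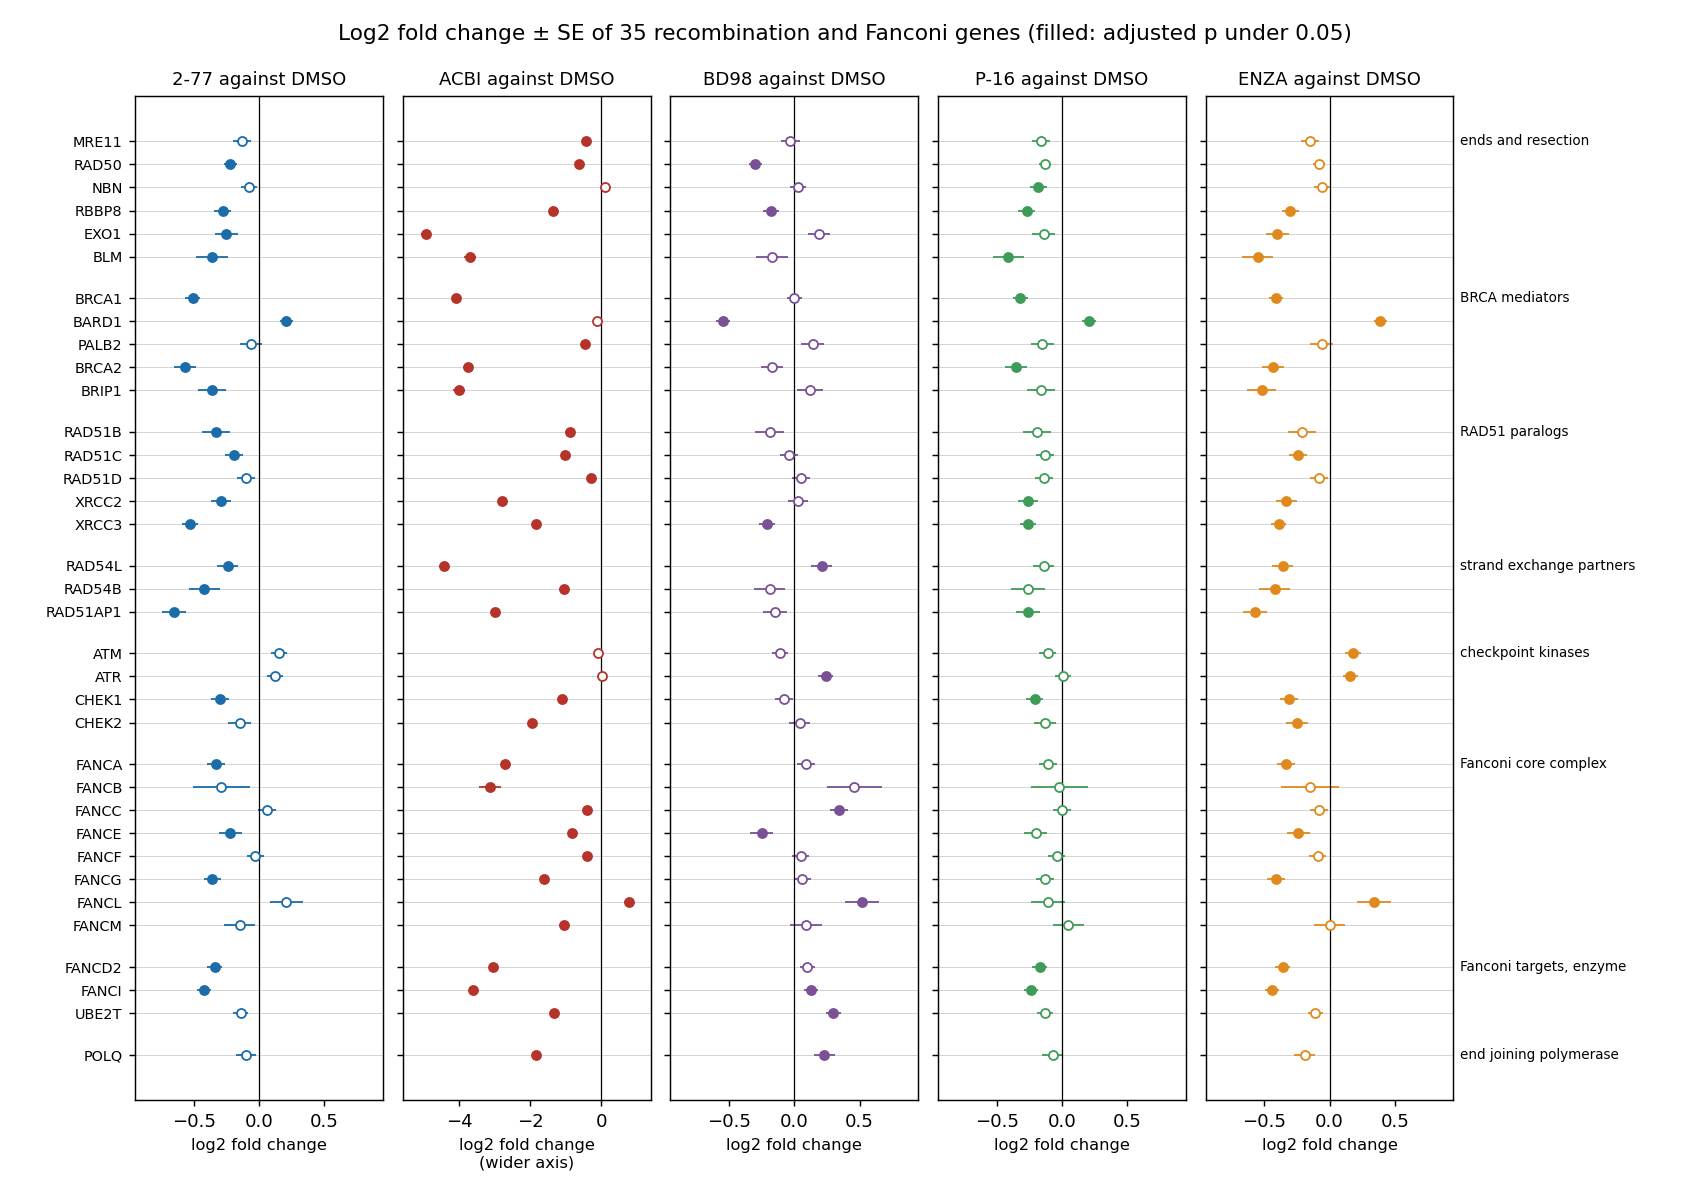
Log2 fold change against DMSO (x axis, points with SE) of the 35 members, one per row and grouped by role, in a panel for each compound; filled points passed the test (edgeR adjusted p under 0.05). Most filled points lie left of 0 with 2-77, P-16 and ENZA, those of ACBI reach -4.94 on a wider axis, and BARD1 stands right of 0 with 2-77, P-16 and ENZA and left of it with BD98.

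BRCA1 and BARD1 form one ubiquitin ligase, in which each protein stabilises the other, and BRCA2 is a tumour suppressor that acts after them at the single strand. BRCA1 lies on chromosome 17 from 43044295 to 43125364 (hg38, as for all positions of whole genes given here), BARD1 on chromosome 2 from 214725646 to 214809683 and BRCA2 on chromosome 13 from 32315508 to 32400268. BRCA1 had 38.9, 33.7 and 36.4 CPM with 2-77, 2.87, 3.31 and 2.899 with ACBI and 52.3, 51.5 and 51.3 with BD98. Its level was 42.8, 41.3 and 40.1 CPM with P-16, 40.9, 38.2 and 37.6 with ENZA and 53.1, 52.8 and 49.5 in DMSO. All libraries of 2-77, ACBI, P-16 and ENZA lay below all of DMSO, and those of BD98 overlapped DMSO. BARD1 had 193, 182 and 208 CPM with 2-77, 149, 149 and 172 with ACBI and 113, 119.8 and 110.5 with BD98. Its level was 203, 191 and 189 CPM with P-16, 217, 219 and 221 with ENZA and 171, 173 and 159 in DMSO. Here the libraries of 2-77, P-16 and ENZA lay above all of DMSO and those of BD98 below. ACBI overlapped DMSO through replicate 3, the library rich in ribosomal RNA, and its other libraries lay below all of DMSO. BRCA2 had 14.4, 15.1 and 16.3 CPM with 2-77, 1.55, 1.74 and 1.66 with ACBI and 21.8, 20.2 and 18.4 with BD98. Its level was 16.2, 17.4 and 19.8 CPM with P-16, 17.2, 17.3 and 15.7 with ENZA and 21.2, 24.7 and 21.8 in DMSO. The ACBI libraries stood far below all others, at 13.7-fold under DMSO (-3.77 ± 0.12, adjusted p = 6.37e-22). BRIP1, a helicase that binds BRCA1, lies on chromosome 17 from 61679139 to 61863528. BRIP1 had 9.56, 10.2 and 11.4 CPM with 2-77, 0.621, 1.26 and 0.621 with ACBI and 14.9, 14.6 and 13.9 with BD98. Its level was 12, 11.6 and 12.3 CPM with P-16, 10.5, 9.11 and 8.43 with ENZA and 12.6, 14.2 and 13.1 in DMSO. It fell with 2-77 (-0.36 ± 0.11), ACBI (-4.01 ± 0.16) and ENZA (-0.52 ± 0.11). PALB2, which bridges BRCA1 and BRCA2, passed the test only with ACBI (-0.44 ± 0.088, adjusted p = 6.56e-05), and whether the compounds differed there was tested only for 2-77 against each of the others.

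The counts of BARD1 over those of BRCA1 in the same library were 4.96, 5.38 and 5.72 with 2-77, 51.8, 45.2 and 59.2 with ACBI and 2.16, 2.33 and 2.16 with BD98. The ratio was 4.74, 4.61 and 4.71 with P-16, 5.31, 5.74 and 5.88 with ENZA and 3.22, 3.27 and 3.21 in DMSO. Each compound's 3 libraries lay entirely on one side of DMSO: BD98 below it and the other compounds above. With 3 against 3 libraries an exact two-sided permutation test cannot go below p = 0.1, so no p is given for the ratio, which is not scaled to transcript length and compares conditions, not the genes' levels.

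**Figure D2:**
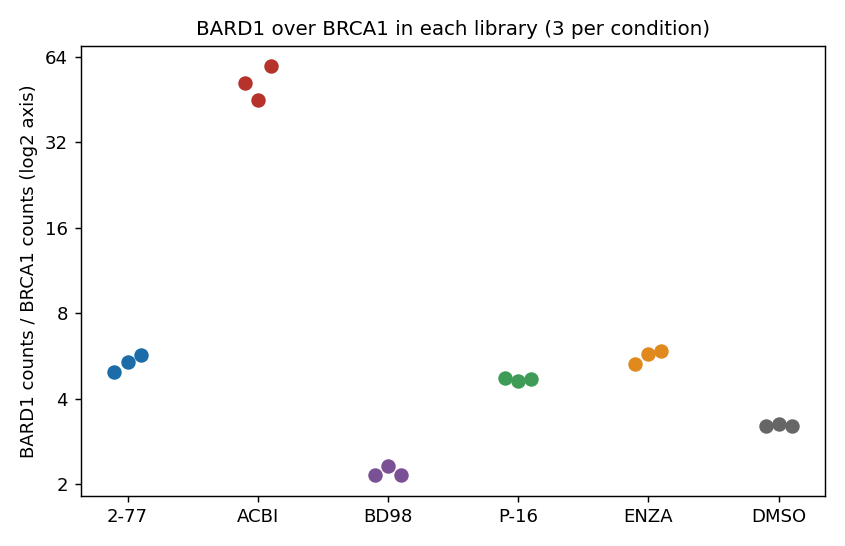
Ratio of BARD1 to BRCA1 counts (y axis, log2 scale) in each of the 18 libraries, by condition on the x axis. The BD98 libraries lie at 2.16 to 2.33, the DMSO libraries at 3.21 to 3.27, and the ACBI libraries at 45.2 to 59.2.

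Among the genes that act on broken ends, EXO1 and BLM fell with ACBI by 4.94 and 3.70 on the log2 scale, while RAD50 and MRE11 fell by 0.62 and 0.42. EXO1, a 5′ exonuclease, lies on chromosome 1 from 241848191 to 241889939. EXO1 had 13.2, 12.9 and 12.7 CPM with 2-77, 0.427, 0.391 and 0.663 with ACBI and 15.8, 19.5 and 17.5 with BD98. Its level was 13.8, 13.9 and 14.2 CPM with P-16, 12.3, 11.9 and 10.6 with ENZA and 14.6, 16.3 and 15.2 in DMSO. With ACBI it rested on 9 to 16 counts per library, and it was 30.8-fold lower (-4.94 ± 0.15, adjusted p = 2.81e-22). BLM, the Bloom syndrome helicase, lies on chromosome 15 from 90717346 to 90816166. BLM had 9.24, 7.47 and 7.64 CPM with 2-77, 0.544, 0.957 and 0.911 with ACBI and 10.2, 10.02 and 7.83 with BD98. Its level was 8.13, 7.62 and 7.701 CPM with P-16, 7.18, 6.78 and 7.46 with ENZA and 10.5, 9.61 and 11.2 in DMSO. It fell with 2-77, ACBI, P-16 and ENZA. RAD50, the structural subunit that holds DNA ends together, lies on chromosome 5 from 132556977 to 132646347 and was the member of this group with the largest fall after BD98. RAD50 had 76.1, 74.3 and 78.6 CPM with 2-77, 55.9, 58.97 and 58.8 with ACBI and 74.6, 71.2 and 71.04 with BD98. Its level was 79.1, 79.95 and 85.1 CPM with P-16, 86.4, 80.4 and 86.7 with ENZA and 88.1, 95.3 and 83.8 in DMSO. Falls were called with 2-77 (-0.22 ± 0.049), ACBI (-0.62 ± 0.050) and BD98 (-0.30 ± 0.050). RBBP8, the nuclease partner also known as CtIP, fell with all 5 compounds, from -1.37 ± 0.069 with ACBI to -0.18 ± 0.063 with BD98. MRE11, the nuclease of the complex, passed the test only in ACBI (-0.42 ± 0.071, adjusted p = 6.34e-06) among the comparisons with DMSO. NBN, which recruits ATM, passed only in P-16 (-0.18 ± 0.063, adjusted p = 0.0364).

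RAD51B, RAD51C, RAD51D, XRCC2 and XRCC3 form small complexes that assist strand exchange, and all 5 fell with ACBI, from -2.80 ± 0.098 for XRCC2 to -0.28 ± 0.068 for RAD51D. XRCC3 lies on chromosome 14 from 103697617 to 103715451, where KLC1 overlaps it on the other strand. XRCC3 had 34.6, 36.3 and 35.1 CPM with 2-77, 15.7, 14.3 and 12.3 with ACBI and 43.9, 42.9 and 44.9 with BD98. Its level was 40.8, 42.6 and 44.5 CPM with P-16, 40.1, 37.2 and 39.7 with ENZA and 51.96, 49.6 and 51.4 in DMSO. It fell with every compound: 1.44-fold with 2-77, 3.61-fold with ACBI, 1.16-fold with BD98, 1.196-fold with P-16 and 1.31-fold with ENZA. With library totals the fall after BD98 was not called (-0.15, adjusted p = 0.0653). XRCC2 lies on chromosome 7 from 152644776 to 152676141. XRCC2 had 18.4, 19.7 and 18.9 CPM with 2-77, 3.07, 3.74 and 3.19 with ACBI and 23.9, 22.4 and 24.5 with BD98. Its level was 19.2, 19.4 and 19.5 CPM with P-16, 19.02, 16.6 and 20.1 with ENZA and 23.1, 24.6 and 21.9 in DMSO. It fell with 2-77, ACBI, P-16 and ENZA, and with BD98 its libraries overlapped those of DMSO. RAD51C fell with 2-77 (-0.19 ± 0.068) and ENZA (-0.24 ± 0.069), and RAD51B with 2-77 (-0.33 ± 0.11). RAD51D passed the test with ACBI alone, and its reads may be shared with a read-through transcript on the same strand.

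RAD54L, RAD54B and RAD51AP1 act in the invasion of the intact duplex. RAD51AP1 lies on chromosome 12 from 4538890 to 4560047. RAD51AP1 had 10.6, 9.76 and 12.1 CPM with 2-77, 2.17, 2.04 and 2.15 with ACBI and 15.8, 16.1 and 14.1 with BD98. Its level was 13.9, 14.5 and 13.9 CPM with P-16, 10.6, 12.3 and 11.02 with ENZA and 14.8, 17.5 and 18.3 in DMSO. Its libraries lay below all of DMSO with 2-77, ACBI, P-16 and ENZA. RAD54L, a DNA translocase, lies on chromosome 1 from 46247688 to 46278473. RAD54L had 15.6, 17.9 and 15.9 CPM with 2-77, 1.05, 0.957 and 0.663 with ACBI and 24.7, 21.3 and 21.2 with BD98. Its level was 17.2, 17.8 and 18.1 CPM with P-16, 14.9, 15.7 and 14.7 with ENZA and 19.9, 19.4 and 18.9 in DMSO. It was 21.6-fold lower with ACBI (-4.44 ± 0.13, adjusted p = 6.1e-23) and 1.16-fold higher with BD98 (0.21 ± 0.079, adjusted p = 0.0304). RAD54B, its paralog, fell with 2-77 (-0.42 ± 0.12), ACBI (-1.05 ± 0.13) and ENZA (-0.42 ± 0.12), and overlaps FSBP on the same strand. With 2-77 and ENZA, RAD54B overlapped DMSO through DMSO replicate 1, at 12.04 CPM against 17.9 and 17.38 in the other DMSO libraries. Both of these calls were lost without DMSO replicate 2 or 3.

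**Figure D3:**
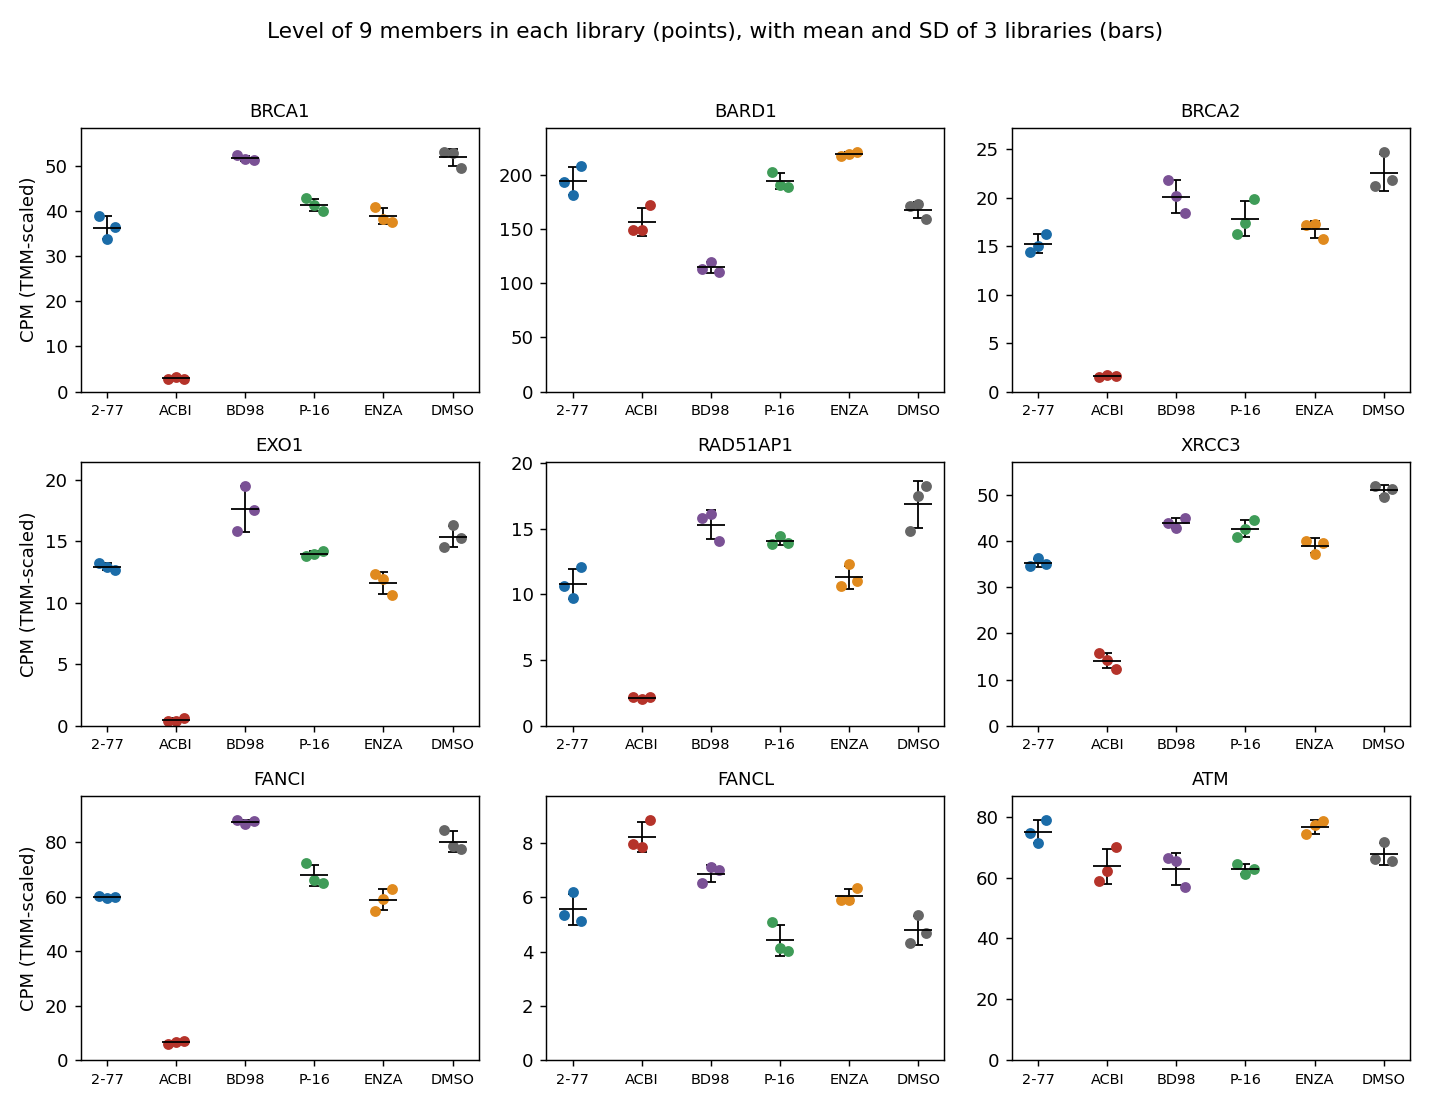
CPM (y axis, from 0) of 9 members in each library (points), with the mean and SD of 3 libraries (bars), by condition on the x axis. ACBI is lowest for BRCA1, BRCA2, EXO1, RAD51AP1, XRCC3 and FANCI and highest for FANCL, and BD98 is lowest for BARD1.

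ATM and ATR are the apical checkpoint kinases, which sense breaks and stalled forks, and CHEK1 and CHEK2 are their effector kinases. ATM lies on chromosome 11 from 108222832 to 108369102, overlapped by C11orf65 on the other strand. ATM had 74.9, 71.5 and 79 CPM with 2-77, 58.9, 62.3 and 69.99 with ACBI and 66.3, 65.5 and 56.8 with BD98. Its level was 64.5, 61.1 and 62.95 CPM with P-16, 74.2, 77.5 and 78.6 with ENZA and 66.2, 71.9 and 65.5 in DMSO. It rose with ENZA (0.18 ± 0.061, adjusted p = 0.0224) and gave 0.15 ± 0.061 with 2-77, which did not pass (adjusted p = 0.0552). The rise with 2-77 was called with library totals (adjusted p = 0.0321), without a filter (adjusted p = 0.0377) and with only the 2 groups compared (adjusted p = 0.0252). It was also called without 2-77 replicate 2 or DMSO replicate 2 (adjusted p = 0.035 and 0.0279). In the direct contrast of 2-77 with ENZA, ATM gave -0.03 ± 0.060 and did not pass. The ENZA call was lost without ENZA replicate 2 or 3 or DMSO replicate 1 or 3 (adjusted p = 0.0638 to 0.0986), and with ACBI ATM was called lower without ACBI replicate 3 (-0.15, adjusted p = 0.021). ATR lies on chromosome 3 from 142449235 to 142578733. ATR had 48.3, 42.8 and 45.3 CPM with 2-77, 40.2, 45.3 and 44.1 with ACBI and 50.9, 46.1 and 51.05 with BD98. Its level was 43.1, 39.3 and 44.5 CPM with P-16, 46.95, 47.2 and 46.04 with ENZA and 41.1, 42.5 and 41.9 in DMSO. It rose with BD98 (0.24 ± 0.060, adjusted p = 0.00132) and ENZA (0.16 ± 0.060, adjusted p = 0.0354), and the call with ENZA was lost without any 1 library of ENZA or DMSO (adjusted p = 0.0541 to 0.0994) and in DESeq2 (adjusted p = 0.0605). With ACBI its interval was -0.08 to 0.17. CHEK1 lies on chromosome 11 from 125625136 to 125676256. CHEK1 had 24.8, 26.3 and 28.3 CPM with 2-77, 13.8, 15.5 and 15.7 with ACBI and 32.2, 31.3 and 28.8 with BD98. Its level was 29.2, 27.7 and 27.2 CPM with P-16, 27.2, 25.4 and 26.1 with ENZA and 30.9, 33.8 and 32.5 in DMSO. It fell with 2-77, ACBI, P-16 and ENZA. CHEK2 lies on chromosome 22 from 28687743 to 28741834 and has pseudogene copies that may share its reads. CHEK2 had 14.5, 14.4 and 13.4 CPM with 2-77, 4.58, 4.001 and 3.44 with ACBI and 15.9, 16.1 and 16.5 with BD98. Its level was 14.3, 12.96 and 15.9 CPM with P-16, 13.7, 12.8 and 13.1 with ENZA and 16.2, 15.3 and 15.6 in DMSO. It was 3.903-fold lower with ACBI and fell with ENZA (-0.25 ± 0.085).

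Of the 8 genes of the Fanconi core complex, 7 fell and 1 rose with ACBI (all genes 36.6% and 35.4%). With 2-77, 3 fell and 0 rose (all genes 20.2% and 20.5%), and with ENZA, 3 fell and 1 rose (all genes 18.1% and 18.2%). With BD98, 1 fell and 2 rose (all genes 24.5% and 24.5%). With P-16, 0 passed in edgeR or DESeq2, against 11.6% down and 12.4% up among all genes in edgeR. There 1 core gene, FANCE, was lower at an unadjusted p under 0.05. FANCG, a scaffold of the complex, lies on chromosome 9 from 35073839 to 35079942. FANCG had 25.9, 27.1 and 25.6 CPM with 2-77, 11.7, 11.1 and 9.94 with ACBI and 32.5, 34.4 and 37.8 with BD98. Its level was 29.3, 32.1 and 30.5 CPM with P-16, 25.2, 26.03 and 24.4 with ENZA and 34.7, 32.96 and 33.2 in DMSO. Falls were called with 2-77 (-0.36 ± 0.066), ACBI (-1.62 ± 0.073) and ENZA (-0.41 ± 0.066). FANCB, the X-linked subunit, lies on chromosome X from 14843405 to 14873069 and was the least abundant member in DMSO. FANCB had 2.07, 1.77 and 3.29 CPM with 2-77, 0.427, 0.391 and 0.166 with ACBI and 3.65, 4.84 and 3.68 with BD98. Its level was 2.52, 3.21 and 2.902 CPM with P-16, 2.07, 3.09 and 2.59 with ENZA and 2.91, 2.93 and 2.896 in DMSO. With ACBI it rested on 4 to 11 counts per library (-3.13 ± 0.31, adjusted p = 2.42e-10). FANCL, the ubiquitin ligase subunit, lies on chromosome 2 from 58159243 to 58241380, overlapped by VRK2 on the other strand, and was the core gene that rose with ACBI. FANCL had 5.35, 6.22 and 5.12 CPM with 2-77, 7.96, 7.87 and 8.86 with ACBI and 6.52, 7.12 and 6.997 with BD98. Its level was 5.08, 4.13 and 4.02 CPM with P-16, 5.92, 5.91 and 6.34 with ENZA and 4.31, 5.36 and 4.68 in DMSO. It was 1.72-fold higher with ACBI (0.78 ± 0.12, adjusted p = 2.08e-06) and 1.43-fold higher with BD98. FANCE, which binds FANCD2, lies on chromosome 6 from 35452338 to 35467102. FANCE had 14.8, 15.1 and 12.4 CPM with 2-77, 9.204, 9.65 and 9.07 with ACBI and 14.2, 14.2 and 13.1 with BD98. Its level was 14.1, 14.9 and 14.1 CPM with P-16, 15.1, 14.3 and 12.3 with ENZA and 15.7, 15.8 and 17.8 in DMSO. FANCE fell with 2-77, ACBI, BD98 and ENZA, with an edgeR adjusted p of at most 0.0424. Its calls with 2-77 and ENZA were lost in DESeq2 (adjusted p = 0.0677 and 0.0541). Its call with BD98 was lost with library totals (adjusted p = 0.0897), and only that with ACBI held in every alternative. FANCA fell with 2-77 (-0.33 ± 0.069), ACBI (-2.71 ± 0.087) and ENZA (-0.33 ± 0.069). FANCC, FANCF and FANCM fell with ACBI (-0.40 ± 0.071, -0.40 ± 0.065 and -1.05 ± 0.13), and FANCC rose with BD98.

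FANCI and FANCD2, the clamp that the core complex marks with ubiquitin, fell in the same 4 comparisons with DMSO. FANCI lies on chromosome 15 from 89243979 to 89317259. FANCI had 60.3, 59.5 and 60.1 CPM with 2-77, 5.94, 6.65 and 6.88 with ACBI and 88.3, 86.9 and 87.95 with BD98. Its level was 72.4, 66.1 and 65.1 CPM with P-16, 54.9, 59.1 and 62.9 with ENZA and 84.8, 78.6 and 77.5 in DMSO. All libraries of 2-77, ACBI, P-16 and ENZA lay below those of DMSO and all of BD98 above. FANCD2 had folds of -0.34 ± 0.058 with 2-77, -3.04 ± 0.075 with ACBI, -0.17 ± 0.059 with P-16 and -0.36 ± 0.058 with ENZA, all called, and 0.10 ± 0.057 with BD98, not called. UBE2T, the conjugating enzyme, lies on chromosome 1 from 202331657 to 202341966. UBE2T had 34.6, 36.7 and 34.3 CPM with 2-77, 14.2, 15.8 and 16.1 with ACBI and 46, 48.3 and 48.6 with BD98. Its level was 34.4, 35.6 and 36.3 CPM with P-16, 35.9, 34.1 and 37.7 with ENZA and 40.3, 38.02 and 37.96 in DMSO. It was 2.52-fold lower with ACBI and 1.23-fold higher with BD98. POLQ, the polymerase of an end joining route that competes with recombination, lies on chromosome 3 from 121431431 to 121545988. POLQ had 25.1, 22.6 and 23.96 CPM with 2-77, 6.25, 7.26 and 8.12 with ACBI and 28.8, 30.2 and 30.7 with BD98. Its level was 25.2, 23.1 and 24.8 CPM with P-16, 23.6, 21.7 and 21.9 with ENZA and 25.7, 28.5 and 22.6 in DMSO. It fell with ACBI (-1.83 ± 0.092, adjusted p = 5.52e-17) and rose with BD98 (0.23 ± 0.079, adjusted p = 0.018).

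Per kilobase of merged exons (GENCODE 29), the members differed widely in DMSO. BARD1 stood highest at 27.6 CPM per kilobase, followed by UBE2T at 23.5, FANCF at 14.2 and NBN at 11.4. BRCA1 stood at 5.64 and BRCA2 at 1.84, and FANCB was lowest at 0.811. Merged exons include every annotated isoform, used in these cells or not.

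Set against ENZA directly, 2-77 differed in the called level of BARD1 alone. Of 35 members, 1 was called lower and 0 higher in edgeR, a share of 2.86%, against 5.54% of all genes called in either direction (2.60% lower and 2.94% higher). At an unadjusted p under 0.05, 1 member was higher and 3 were lower, and DESeq2 called 0 higher and 1 lower. The 1 call was BARD1 (-0.18 ± 0.052, adjusted p = 0.0462), and it was lost without 2-77 replicate 1 or 2, without ENZA replicate 1, 2 or 3 (fold changes then -0.18 to -0.13, adjusted p = 0.104 to 0.238) and with a replicate block (adjusted p = 0.0672). The 95% intervals of the 35 differences reached from -0.59 to 0.45 at their outermost, so differences within those bounds are not shown to be absent. MKI67 gave -0.02 ± 0.042 in this contrast and did not pass.

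Against P-16, 2-77 was lower in 7 members and higher in 1, shares of 20% and 2.86%, against 11.8% and 10.6% of all genes. With library totals 4 members were lower and 1 higher (all genes 1880 up and 1228 down). RAD51AP1 (-0.38 ± 0.094, adjusted p = 0.00369) and XRCC3 (-0.27 ± 0.061, adjusted p = 0.00152) were lowest, and ATM was higher (0.26 ± 0.061, adjusted p = 0.00285). The other lower members were BRCA1, FANCA, FANCG, FANCD2 and FANCI, between -0.22 and -0.17. Each of these 5 calls was lost on leaving out at least 1 library of 2-77 or P-16 (adjusted p = 0.0501 to 0.136, fold changes -0.21 to -0.13), and the number lower was 4 without P-16 replicate 1 or 2. Without P-16 replicate 1, 2 members were higher. MKI67 was lower with 2-77 than with P-16 (-0.27 ± 0.042).

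Against BD98, 2-77 was lower in 18 members and higher in BARD1 and ATM, shares of 51.4% and 5.71%, against 21.3% lower and 20.7% higher among all genes (42.0% together). With library totals 25 members were lower and 2 higher (all genes 2551 up and 4148 down). The widest gaps were those of BARD1 and FANCB. BARD1 was 1.699-fold higher with 2-77 (0.76 ± 0.053, adjusted p = 1.72e-11), while BRCA1 was lower (-0.51 ± 0.056, adjusted p = 1.76e-08). FANCB (-0.76 ± 0.21, adjusted p = 0.00428), FANCI (-0.55 ± 0.052, adjusted p = 6.9e-10) and RAD51AP1 (-0.50 ± 0.093, adjusted p = 7.33e-05) were also lower with 2-77. MKI67 (-0.57 ± 0.042) and PCNA (-0.41 ± 0.046) were lower too. The call of CHEK1 was lost without 2-77 replicate 1 or BD98 replicate 1, and that of FANCL without 2-77 replicate 1 or 3 or any 1 library of BD98 (adjusted p = 0.0515 to 0.142, fold changes -0.34 to -0.17).

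Against ACBI, 2-77 was higher in 32 members and lower in FANCL and NBN, shares of 91.4% and 5.71%, against 36.8% higher and 33.4% lower among all genes (70.2% together). EXO1 (4.70 ± 0.15, adjusted p = 1.19e-21), RAD54L (4.19 ± 0.13, adjusted p = 2.67e-22) and BRIP1 (3.65 ± 0.16, adjusted p = 2.94e-18) differed most. ATR did not pass (0.08 ± 0.058, adjusted p = 0.24). FANCL was lower with 2-77 (-0.57 ± 0.12, adjusted p = 9.36e-05). MKI67 was higher with 2-77 than with ACBI (3.96 ± 0.055). The call of RAD51D was lost without 2-77 replicate 1 or ACBI replicate 3, and that of NBN without 2-77 replicate 2 (adjusted p = 0.0611 to 0.0787, fold changes -0.14 to 0.16), and 1 member was lower without 2-77 replicate 2.

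**Figure D4:**
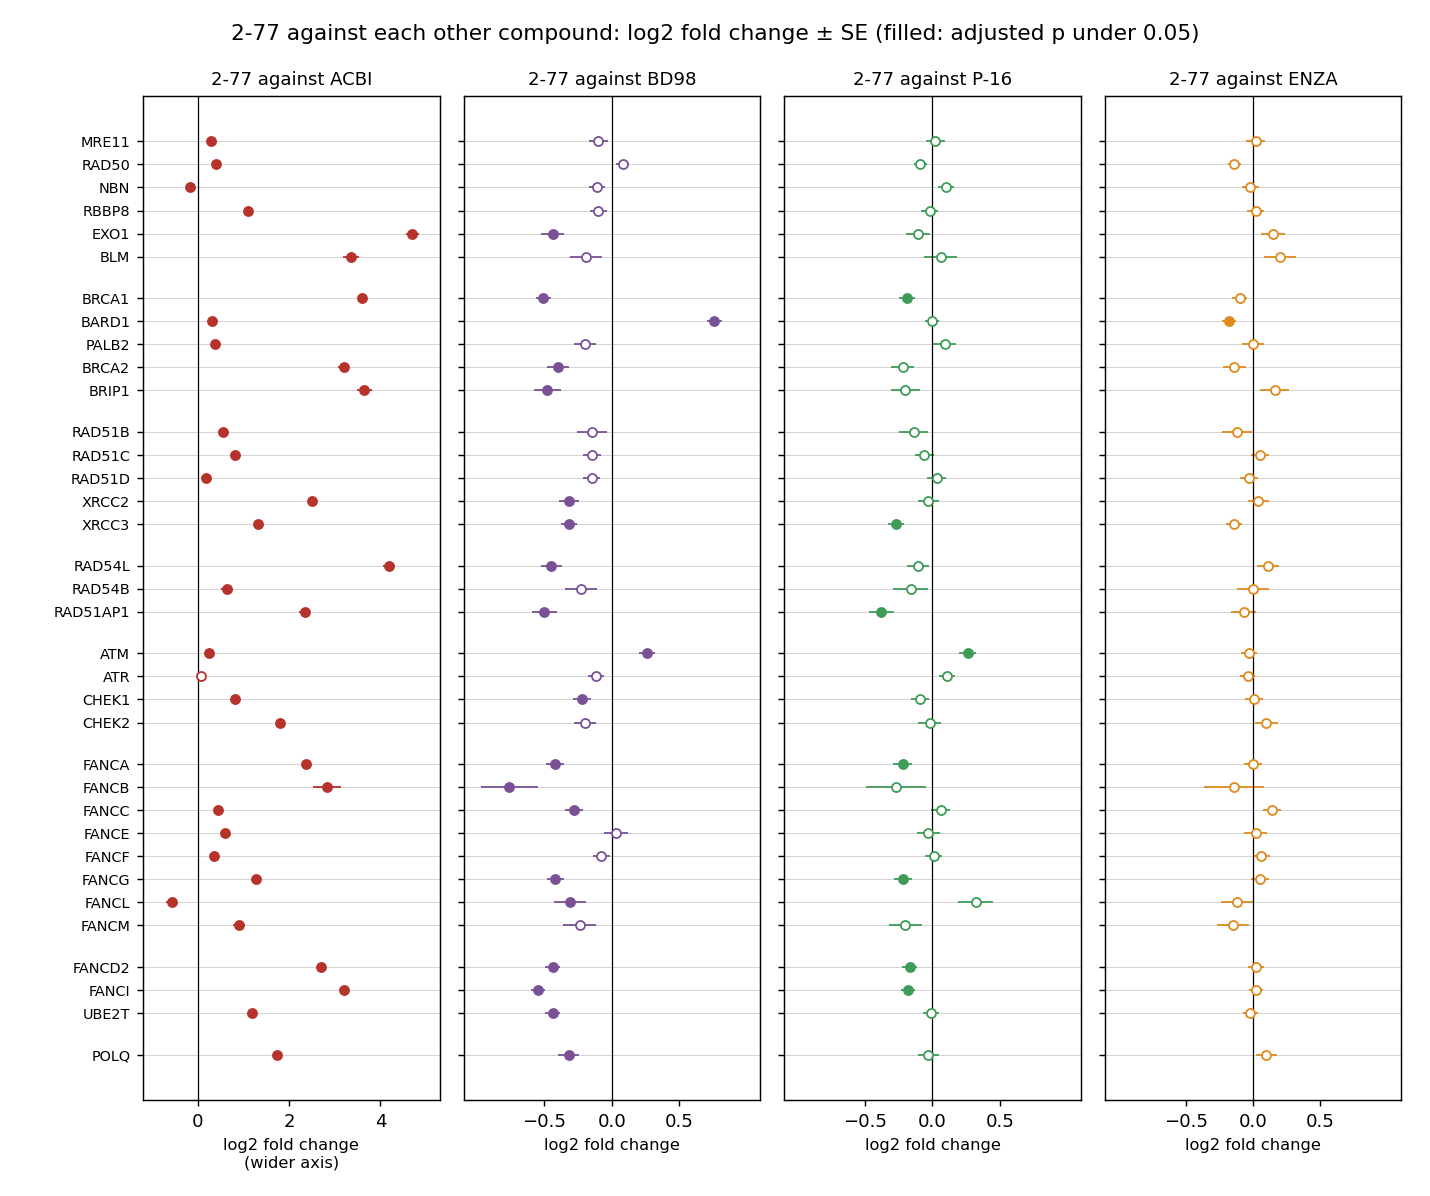
Log2 fold change of 2-77 against each other compound (x axis, points with SE) for the 35 members, grouped by role; filled points passed the test. In the panel against ENZA 1 point is filled (BARD1), against P-16 there are 8, against BD98 20 and against ACBI 34 on a wider axis.

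Other repair and cell cycle genes were counted in the same fits, from lists of pathway members that hold no member described above. Their counts stand against the shares of all genes given above: 20.5% up and 20.2% down with 2-77, 35.4% and 36.6% with ACBI, 24.5% and 24.5% with BD98, 12.4% and 11.6% with P-16, and 18.2% and 18.1% with ENZA. In the list of mitosis genes, 29 of 30 fell with 2-77 (median -0.60), 29 with ACBI (-4.02), 20 with BD98 (-0.22), 28 with P-16 (-0.39) and 29 with ENZA (-0.61), and the others did not pass. DNA replication genes gave 22 down of 35 with 2-77 (median -0.20), 1 up and 34 down with ACBI (-2.04), 10 down with P-16 (-0.10) and 27 down with ENZA (-0.26). With BD98, 19 of them rose and 5 fell (median 0.18), among them PCNA (0.42 ± 0.046) and the helicase gene MCM4 (0.34 ± 0.040). Further homologous recombination genes gave 3 up and 14 down of 29 with 2-77, 5 up and 19 down with ACBI, 8 up and 4 down with BD98, 1 up and 9 down with P-16, and 2 up and 16 down with ENZA. They included FIGNL1, an ATPase that restrains recombination, which rose with 2-77 (0.45 ± 0.054) and ENZA (0.44 ± 0.054), and EME1, a subunit of a junction-cutting nuclease, which fell with ACBI (-4.18 ± 0.15).

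In nonhomologous end joining 7 of 13 genes fell and 2 rose with ACBI (53.9% and 15.4%, median -0.21), with PRKDC, its kinase, at -0.85 ± 0.036, and 1 of 13 fell with ENZA. Of nucleotide excision repair genes, 10 of 19 rose and 2 fell with ACBI (52.6% and 10.5%, median 0.15), with UVSSA, a factor of transcription-coupled repair, at 0.96 ± 0.052. Mismatch repair genes gave 2 up and 2 down of 7 with 2-77 and 1 up and 1 down with ENZA. PMS2, a mismatch repair endonuclease subunit, rose with 2-77 (0.65 ± 0.038, adjusted p = 1.97e-14), P-16 (0.57 ± 0.039) and ENZA (0.75 ± 0.038, adjusted p = 8.26e-16) and fell with BD98 (-0.27 ± 0.039). PMS2 has near-identical pseudogenes, so its counts are uncertain. Base excision genes gave 6 down of 20 with 2-77, with the smallest p for the glycosylase NEIL3 (-0.91 ± 0.13), and 13 down and 1 up with ACBI. Further genes of the Fanconi pathway gave 2 up and 6 down of 15 with 2-77 and 5 up and 7 down with ACBI (33.3% and 46.7%, near the shares of all genes, 35.4% and 36.6%). Genes that signal at breaks rose in 10 of 22 cases with BD98, among them TIMELESS (0.37 ± 0.046) and TP53BP1 (0.34 ± 0.043), and fell in 14 with 5 rising with ACBI. Of E2F and pocket protein regulators, 11 of 26 fell and 3 rose with 2-77, with the smallest p for FOXM1 (-0.52 ± 0.046), and 17 fell and 1 rose with ACBI, with the smallest p for MYBL2 (-4.66 ± 0.081).

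**Figure D5:**
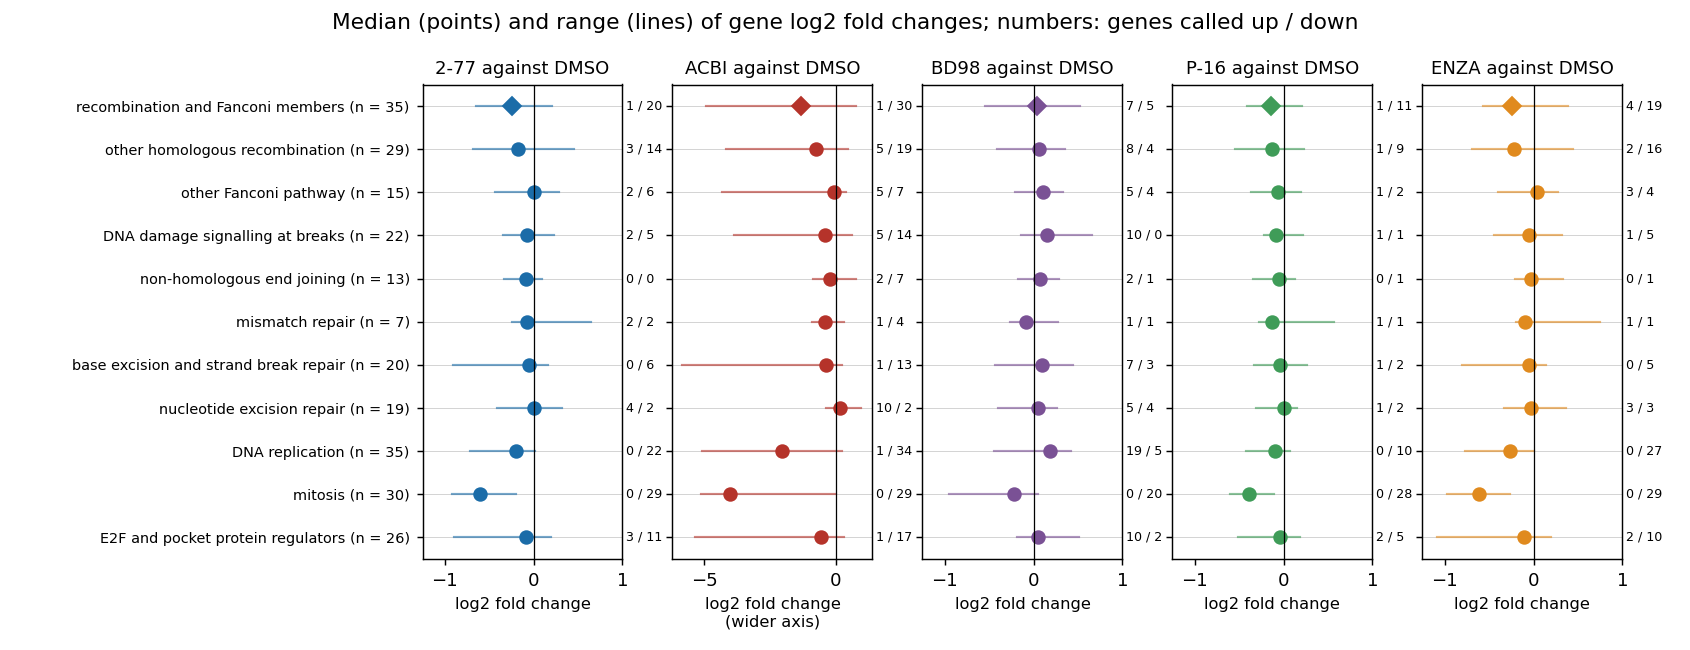
Median (points) and range (lines) of log2 fold changes against DMSO for the 35 members and 10 other gene lists (rows), in a panel for each compound; the numbers at the right give genes called up and down. The members' median is -1.33 with ACBI, between DNA replication at -2.04 and the other homologous recombination genes at -0.76, and mitosis has the lowest median with each compound.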

How the data were processed

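RNA-seq was carried out on LNCaP cells in 18 libraries, made with a stranded mRNA kit per the labels' protocols. The authors deposited 1 table of estimated counts (expected counts with decimals, not scaled to depth) per gene and library. STAR, Partek, DESeq2 and build hg38 are named in the submitters' processing notes, while the counter, its annotation and its strand setting are not given in the sources used here. Without strand in the counting, reads of a gene and of an overlapping gene on the other strand cannot be told apart, which touches 10 members.

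Counts were rounded to whole numbers, and genes were kept by the filterByExpr default of edgeR 4.0.16 (R 4.3.3), which removed 4723 of 20145 genes. TMM factors and the quasi-likelihood test with Benjamini-Hochberg adjustment over all 15422 genes were used, in 1 fit of all 6 groups without covariates (12 residual degrees of freedom), and intervals are 95% intervals of that fit. The code was tested on simulated data. Alternatives were library totals, RLE factors, 2 other filters, a replicate block, only the 2 groups compared, DESeq2 1.42.0 and leaving out each library. Deviations of same-number libraries correlated over 0.1 in every replicate only between 2-77 and ACBI, at 0.145 to 0.392. The 0.392 was that of replicate 3, where ribosomal RNA genes held 2.09% of counts with 2-77 and 8.6% with ACBI. Whether libraries of the same number were paired was not tested. Library totals of 16835113 to 36975052 counts set the precision, and members with few counts, such as FANCB, have wider errors. No pair of replicates agreed within sampling noise.

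The 35 members and the 10 gene lists were chosen with earlier results of these data known. Values in every library are given for the largest called rise and fall of each role group in each comparison with DMSO and for BRCA1, BRCA2 and ATM. From other lists, the 2 genes with the smallest p in a comparison could be named, plus MKI67 and PCNA. Library columns named PB_16 and SCO277 were taken as P-16 and 2-77. Promoters came from RefSeq tables of GRCh38.p14.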

Additional observations from a re-analysis of the deposited data

How the results depend on the processing

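No member reversed its direction where it was called. With library totals, 2 members rose in 2-77 against DMSO, 11 rose and 2 fell in BD98 against DMSO, 4 were lower in 2-77 against P-16 and 1 was lower in 2-77 against ACBI. Without a filter, and with only the 2 groups compared, 2 rose in 2-77 against DMSO. With the replicate block 0 members were lower in 2-77 against ENZA, and no count of members moved by over 1.5 times in the other comparisons, 2-77 against ACBI included. DESeq2 called 2 members higher in ENZA against DMSO. The cause of these shifts was not tested. Over leave-one-out fits, members up and down ran from 1 to 2 and 15 to 18 in 2-77 against DMSO, 1 to 2 and 30 to 32 in ACBI, 4 to 7 and 4 to 5 in BD98, 1 and 6 to 12 in P-16, and 1 to 3 and 17 to 19 in ENZA. For 2-77 they ran 0 and 0 to 1 against ENZA, 1 to 2 and 4 to 6 against P-16, 2 and 17 to 19 against BD98, and 31 to 32 and 1 to 2 against ACBI. All genes called ran from 278 to 459 up and 221 to 492 down in 2-77 against ENZA. Calls kept in every alternative numbered 13 of 21 members in 2-77 against DMSO, 31 of 31 in ACBI, 6 of 12 in BD98, 6 of 12 in P-16 and 17 of 23 in ENZA. Depth limits the low members: with ACBI, FANCB rested on 4 to 11 counts per library.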
